A study of Mus musculus with 15 samples.

Results

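Mitosis genes other than the mitotic kinesins were followed as a list of 51 genes in newborn mouse cerebella in which the kinase Gsk-3 had been deleted. Of these, 50 were measured, among 22180 genes tested in all. A member was taken from an array row that names it as its only gene symbol, and where it had several such rows the one with the highest mean was used. Ncapg, a condensin subunit, had only a row shared with Lcorl and was left out of the counts; that row averaged 7.09 in DKO, 7.37 in Math1-Cre and 7.60 in no-Cre libraries on the log2 scale. By function the measured genes fell into 16 genes of the kinetochore, centromere and spindle checkpoint, 11 of the spindle, 4 of cytokinesis, 8 of condensin and chromosome structure, and 11 regulators of entry into and exit from mitosis. All 50 were lower on average in DKO than in no-Cre cerebella, with a median difference of -0.49 on the log2 scale, but 3 passed the test across all genes in the 15 libraries.

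Each of 15 libraries was hybridised to its own whole-transcript array, and each came from the whole cerebella of 1 replicate on a C57BL/6 background. The age is given as P1 in one field and P2 in another, and a density gradient was used to enrich the granule neuron progenitors ahead of RNA isolation. In the 5 DKO libraries both isoforms of Gsk-3 are described as deleted in cerebellar granule neuron progenitors. In the 5 Math1-Cre control libraries only Gsk-3 beta is deleted, and their descriptions read Gska+-, GskBff with M1Cre. In the 5 no-Cre control libraries Gsk-3 is described as intact, and their descriptions give Gska+-, GskBff too, except that replicate 5 names no Gsk3b genotype. Math1 (Atoh1) is a transcription factor gene of granule neuron progenitors, so a Cre driven by its promoter acts in these cells and their descendants. Gska+- is written for both control groups, and the labels do not state whether the other cells of the cerebellum keep both kinases. Litter and day are not in the labels; a p-value here therefore reflects only how far these samples scatter, which may be technical, and the number of arrays limits every value.

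A cell that enters mitosis condenses its chromosomes, builds a bipolar spindle, attaches each chromosome to it through the kinetochore, and holds back separation until the spindle checkpoint is satisfied; separase then cuts cohesin, and an actomyosin ring divides the cell. Most genes of this machinery are transcribed in late S and G2 phase by the MuvB complex with B-Myb and FoxM1, through promoter elements called the CHR and the CCAAT box, and the factor NF-Y binds the CCAAT box. In the newborn cerebellum the cells that divide are above all granule neuron progenitors of the external granule layer, driven by Sonic hedgehog.

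The targeted gene was checked first. The row for Gsk3a, which the array shares with 9130221H12Rik, read 9.47, 8.22, 9.37, 7.89 and 8.27 in DKO libraries 1 to 5, against 8.25, 8.03, 9.48, 9.50 and 9.51 in Math1-Cre and 9.42, 9.52, 9.59, 9.42 and 9.57 in no-Cre libraries 1 to 5. A level of 9.0 separates 5 low libraries, DKO 2, 4 and 5 with Math1-Cre 1 and 2, from 10 high ones; the highest value below it was 8.27 and the lowest above it 9.37. Libraries labelled DKO 1 and DKO 3 thus read like controls on this row, and libraries labelled Math1-Cre 1 and 2 read low. Counts of calls, and the difference from no-Cre of every mitosis gene described, are therefore given for the 15 libraries as labelled and for the 11 libraries left without these 4. The 11 were kept on a measured value and after earlier results were known, so their p-values describe these libraries and are no independent evidence. Groups formed by the Gsk3a row are described by ranges and counts only.

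The arrays themselves differed. The interquartile range of the values over all tested genes ran from 4.06 to 4.24 in DKO arrays and from 4.31 to 4.36 in Math1-Cre arrays. In no-Cre arrays it was 4.33 to 4.40 apart from 4.00 in no-Cre 4, and that library lay below the other 4 no-Cre libraries in 39 of the 50 genes. The spread of the array thus moved with the label, and the fits with it as a covariate are given beside the counts.

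Across the list the mitosis genes lay lower in DKO than in no-Cre cerebella in all 5 functional classes. In the 15 libraries 50 of 50 genes were below zero, against a median of -0.02 over all genes, and every class median lay between -0.56 and -0.37. limma with Benjamini-Hochberg adjustment over all 22180 genes called 3 of the 50 lower, Fam83d, Ckap2 and Spag5, all of the spindle, and none higher; over all genes 0.0541% were called lower and 0.018% higher. At an unadjusted p under 0.05 there were 41 of the 50 (82%), and 3862 of all genes (17.4%). The unadjusted counts by class below are to be read beside that share of all genes. Each library pools many cells, enriched by density gradient, so fewer cycling cells and less of these RNAs per cell cannot be told apart. How far the gradient enriched progenitors in each library was not tested. With array spread as a covariate the median was -0.43 and 0 of the 50 passed. Quantile normalization also ended all 3 calls, and centring those of Ckap2 and Spag5. Single libraries moved the count of 3: it was 0 when DKO 3 or any of the no-Cre libraries 1, 2 and 3 had been left out, 1 for DKO 2, Math1-Cre 3 and no-Cre 5, 5 without Math1-Cre 5 and 8 without DKO 5 (0.69% of all genes called lower). Without no-Cre 4 it was 22, when 5.29% of all genes were called lower.

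Without the 4 libraries, 22 of the 50 genes were called lower in DKO than in no-Cre cerebella, where 0.64% of all genes were called lower and 0.437% higher, and their median was -0.61 (all genes -0.02). These 22 were 9 of the 16 kinetochore genes, 5 of the 11 spindle genes, 2 of the 4 cytokinesis genes, 2 of the 8 genes of chromosome structure and 4 of the 11 regulators. The count depended on single libraries: it was 43 without no-Cre 4, when 2.98% of all genes were called lower, and 6 without DKO 2, 5 without DKO 4, and 9, 7 and 7 without no-Cre 1, 2 and 5. Fam83d, Spc24 and Nek2 passed in all 11 fits that left out 1 library, but Spc24, like Spdl1 among the 22, was at background in all 3 DKO libraries of this fit. With array spread as a covariate 7 of the 50 passed. Where no share of all genes stands beside a count here, none is given, and the count shows only how far the calls depended on the setting.

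**Figure D1:**
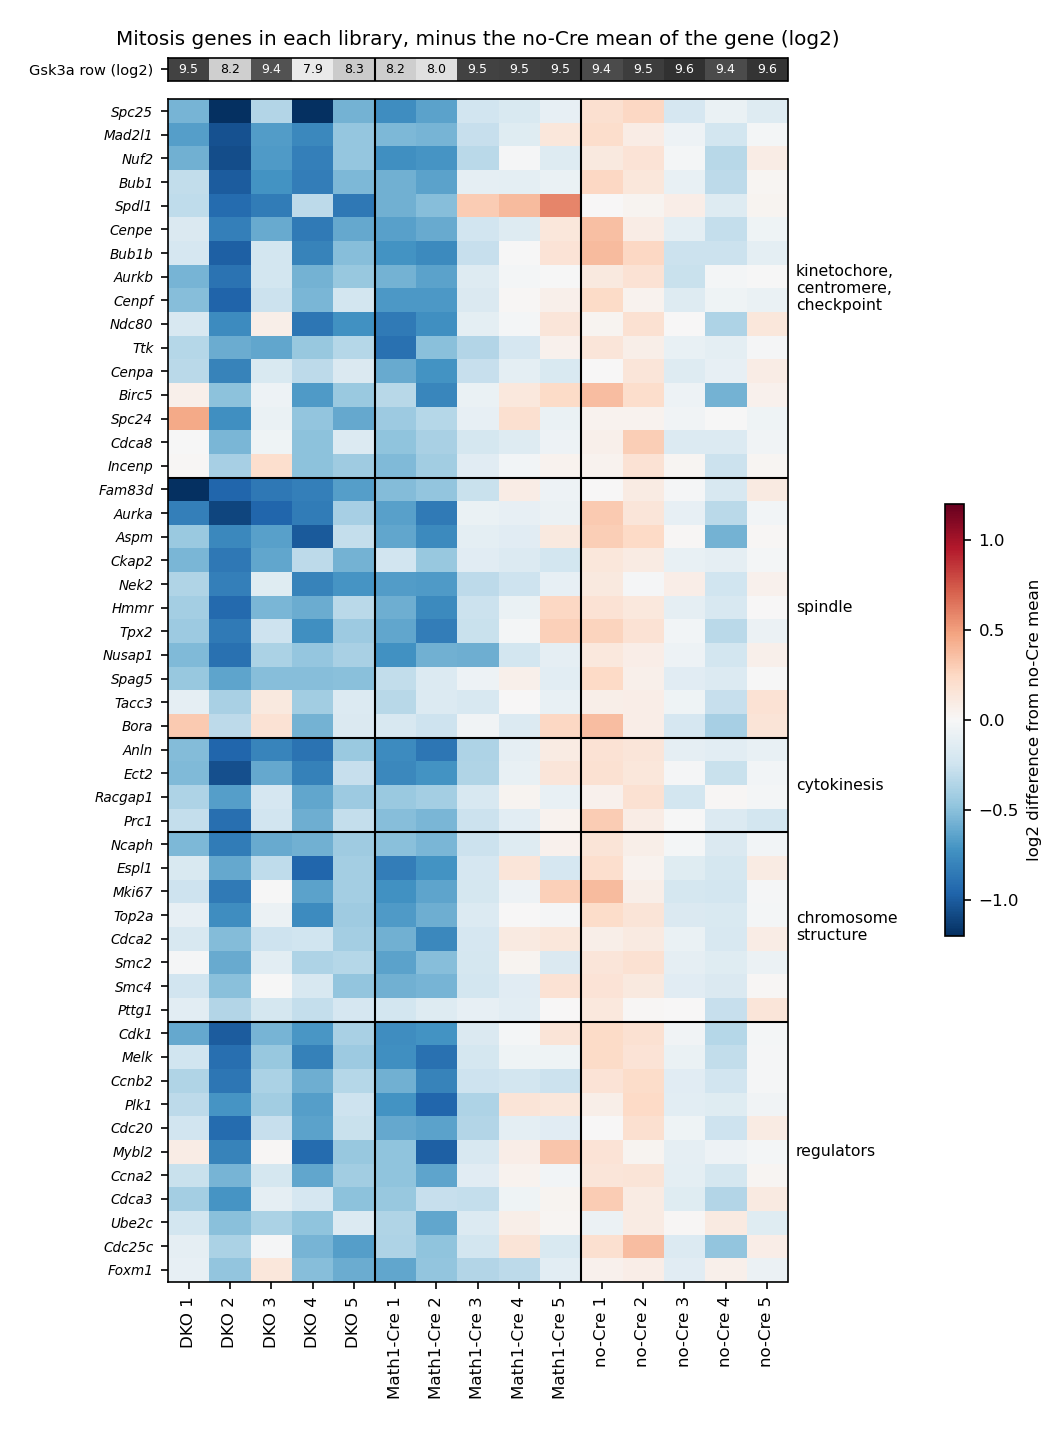
Each cell is the log2 level of 1 mitosis gene in 1 library minus the mean of that gene over the 5 no-Cre libraries, with genes grouped by function and the level of the Gsk3a row on top. DKO 2 and 4 and Math1-Cre 1 and 2 form the bluest columns, with means over the 50 genes of -0.76, -0.62, -0.58 and -0.60.

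Against the Math1-Cre control the differences were smaller in the 15 libraries. There 46 of 50 genes were below zero in DKO, and 34 after quantile normalization or 32 after centring, with a median of -0.17 (all genes -0.05). limma called 2 lower, Fam83d and Spag5, with 0.419% of all genes called lower and 0.131% higher. At an unadjusted p under 0.05 there were 11 of the 50 (22%), a share near that of all genes, 5091 of 22180 (23%). Leaving out DKO 5 gave 2 (1.48% of all genes called lower), leaving out no-Cre 1 gave 1, leaving out no-Cre 4 gave 3 (4.18%), and 0 passed without any of the other 12 libraries. Among the 11 libraries all 50 were below zero with a median of -0.55 (all genes -0.06), and 6 were called lower, Fam83d, Mybl2, Ndc80, Nek2, Spc24 and Spdl1, with 0.252% of all genes called lower and 0.289% higher. These 6 were 16 without no-Cre 4, when 1.04% of all genes were called lower, but 1 without DKO 2 or Math1-Cre 4, 2 without DKO 4 or Math1-Cre 5, and 3 without Math1-Cre 3. With array spread as a covariate 0 of the 50 passed in the 15 libraries and 1 in the 11. Counts without a share of all genes beside them show only how far the calls depended on the setting. This comparison and the one with the no-Cre control share the DKO libraries.

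**Figure D2:**
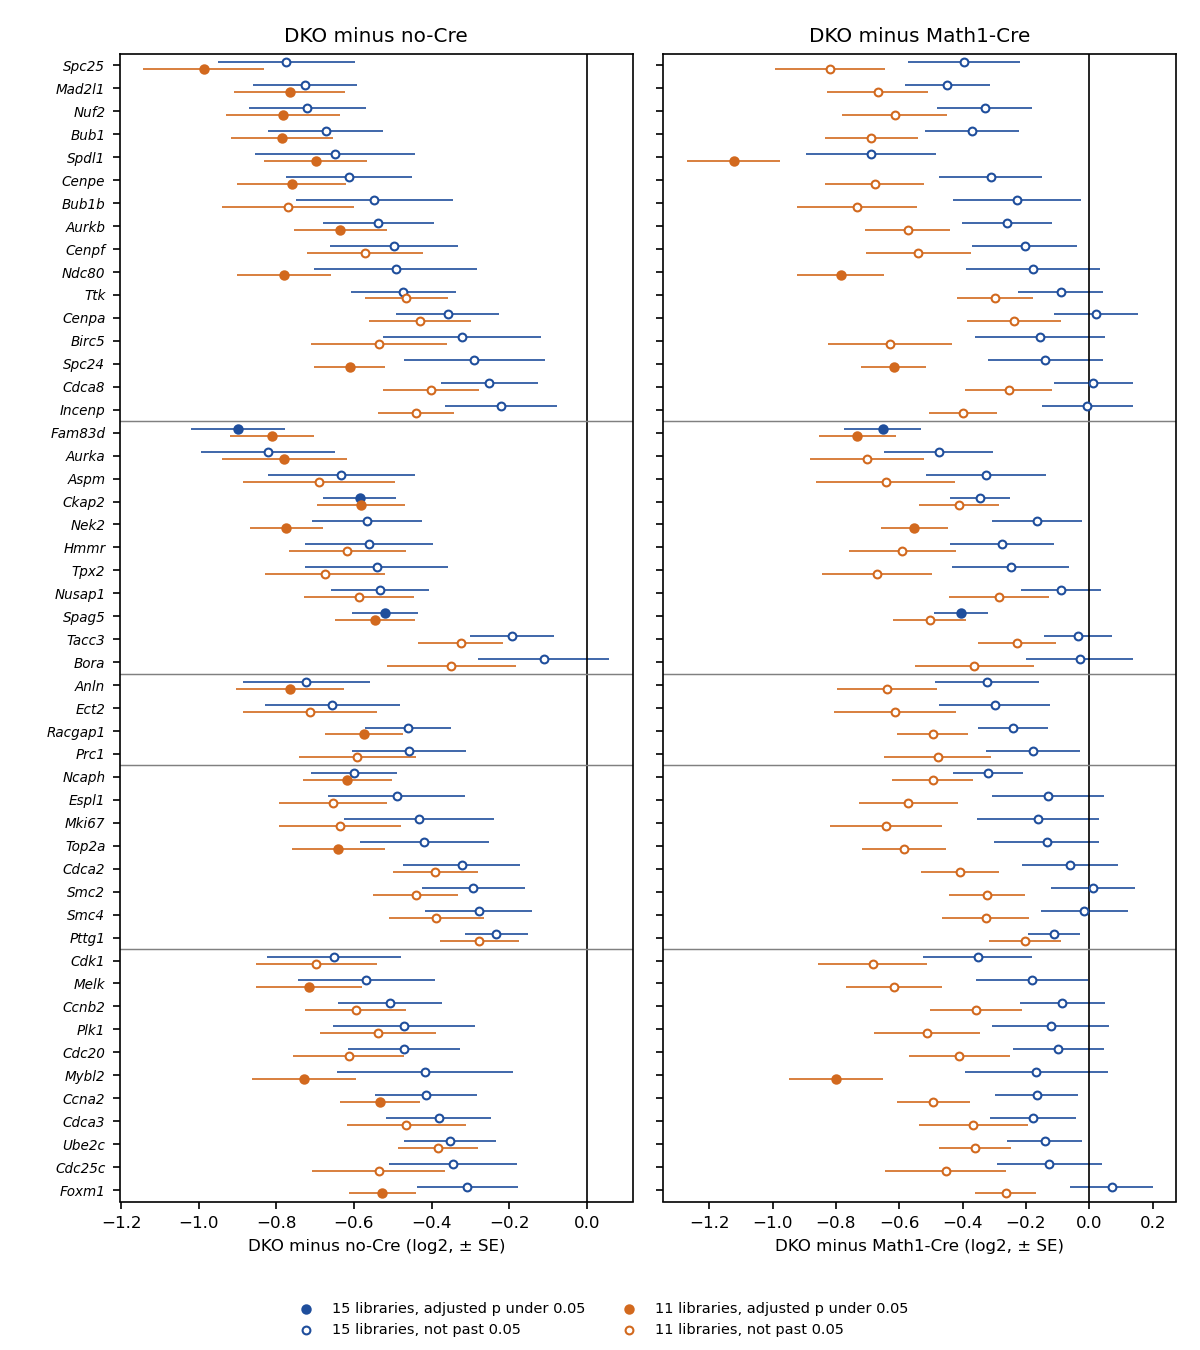
Points are the limma difference of each gene in log2 units with its SE, for DKO minus no-Cre on the left and DKO minus Math1-Cre on the right, in 15 libraries (blue) and 11 libraries (orange); filled points passed an adjusted p of 0.05. All 50 blue points lie below zero on the left and 46 on the right, and the orange points on the right lie further from zero, with a median of -0.55 against -0.17.

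The Math1-Cre control itself was lower than the no-Cre control in 49 of 50 genes, with a median of -0.29 (all genes 0.02), but limma called 0 of the 50 and 0% of all genes; 14 of the 50 and 716 of all genes had an unadjusted p under 0.05. Among the 11 libraries 42 of 50 were below zero, the median was -0.08 and again 0 were called, with 3 of the 50 and 488 of all genes under an unadjusted 0.05. The larger shift of the 15 libraries thus came with Math1-Cre 1 and 2, whose means over the 50 genes were -0.58 and -0.60 relative to the no-Cre mean, against -0.21, -0.04 and 0.03 in Math1-Cre 3, 4 and 5.

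The promoters of these genes are shown as background, because the known transcription of mitosis genes runs through 2 short elements. The list was chosen as mitosis genes, so an excess of these elements could be foreseen from that choice. It is no result about the DKO libraries. Of the 51 genes, 41 matched RefSeq's promoter table of GRCm38.p6, with 43 promoters. CCAAT (read as CCAAT or ATTGG, so on both strands) was searched in the 250 bases before the transcript start, as was TTTGAA (or TTCAAA), the core of the CHR; the letters of the 2 motifs do not contain each other. CCAAT occurred in 32 of the 43 promoters (74.4%), against 33.8% of all 32851 promoters in the table, and at least 2 copies occurred in 19 (44.2%, against 10.1%). TTTGAA occurred in 14 (32.6%, against 16%), and the same number held both (32.6%, against 5.55%). The 150 bases before the start are printed 5′ to 3′ on the coding strand with matches in capitals, for the 3 spindle genes called in the 15 libraries, for Aurka, Cdk1, Ccnb2 and Top2a as the best known of the list, and for Anln as one with a large difference and no match. The windows are Fam83d chr2:158767949-158768098 on the plus strand, Ckap2 chr8:22185820-22185969 on the minus strand, Spag5 chr11:78301441-78301590 on the plus strand, Aurka chr2:172370571-172370720, Cdk1 chr10:69352913-69353062, Ccnb2 chr9:70421555-70421704, Top2a chr11:99024190-99024339 and Anln chr9:22389207-22389356, all 5 on the minus strand.
Fam83d: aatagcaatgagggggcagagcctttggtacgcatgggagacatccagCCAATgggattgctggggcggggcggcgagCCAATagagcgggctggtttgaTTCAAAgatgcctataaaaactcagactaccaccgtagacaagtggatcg
Ckap2: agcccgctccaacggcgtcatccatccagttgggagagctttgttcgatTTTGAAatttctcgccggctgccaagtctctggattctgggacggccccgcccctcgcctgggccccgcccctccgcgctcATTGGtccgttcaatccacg
Spag5: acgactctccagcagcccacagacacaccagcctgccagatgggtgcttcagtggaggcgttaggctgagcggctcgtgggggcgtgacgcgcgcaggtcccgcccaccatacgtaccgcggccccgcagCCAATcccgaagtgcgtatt
Aurka: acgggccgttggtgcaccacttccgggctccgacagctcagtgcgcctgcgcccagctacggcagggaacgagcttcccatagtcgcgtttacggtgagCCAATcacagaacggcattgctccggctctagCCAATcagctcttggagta
Cdk1: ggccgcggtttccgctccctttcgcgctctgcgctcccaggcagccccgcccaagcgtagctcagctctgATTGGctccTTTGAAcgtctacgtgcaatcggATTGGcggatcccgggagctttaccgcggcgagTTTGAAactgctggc
Ccnb2: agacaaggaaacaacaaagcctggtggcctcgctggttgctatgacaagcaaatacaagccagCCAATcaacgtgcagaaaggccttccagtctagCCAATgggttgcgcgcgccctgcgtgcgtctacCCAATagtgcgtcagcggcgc
Top2a: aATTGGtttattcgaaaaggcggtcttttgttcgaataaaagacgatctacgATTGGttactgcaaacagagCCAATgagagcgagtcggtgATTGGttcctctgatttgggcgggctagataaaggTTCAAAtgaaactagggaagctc
Anln: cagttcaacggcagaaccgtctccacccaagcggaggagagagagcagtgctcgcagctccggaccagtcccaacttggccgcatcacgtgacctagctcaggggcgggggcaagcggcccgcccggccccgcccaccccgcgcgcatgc
In Cdk1, the kinase that drives mitosis, the printed window held CCAAT at 80 and 48 bases and TTTGAA at 71 and 15 bases before the start, and a further CCAAT lay outside it, at 208 bases. Top2a held 4 CCAAT and 1 TTTGAA in this window, and Anln none of either. A match is a string of letters and not a shown binding site, and the RefSeq start equalled the gene boundary of the gene table in 20 of the 43 promoters and lay within 100 bases of it in 35.

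**Figure D3:**
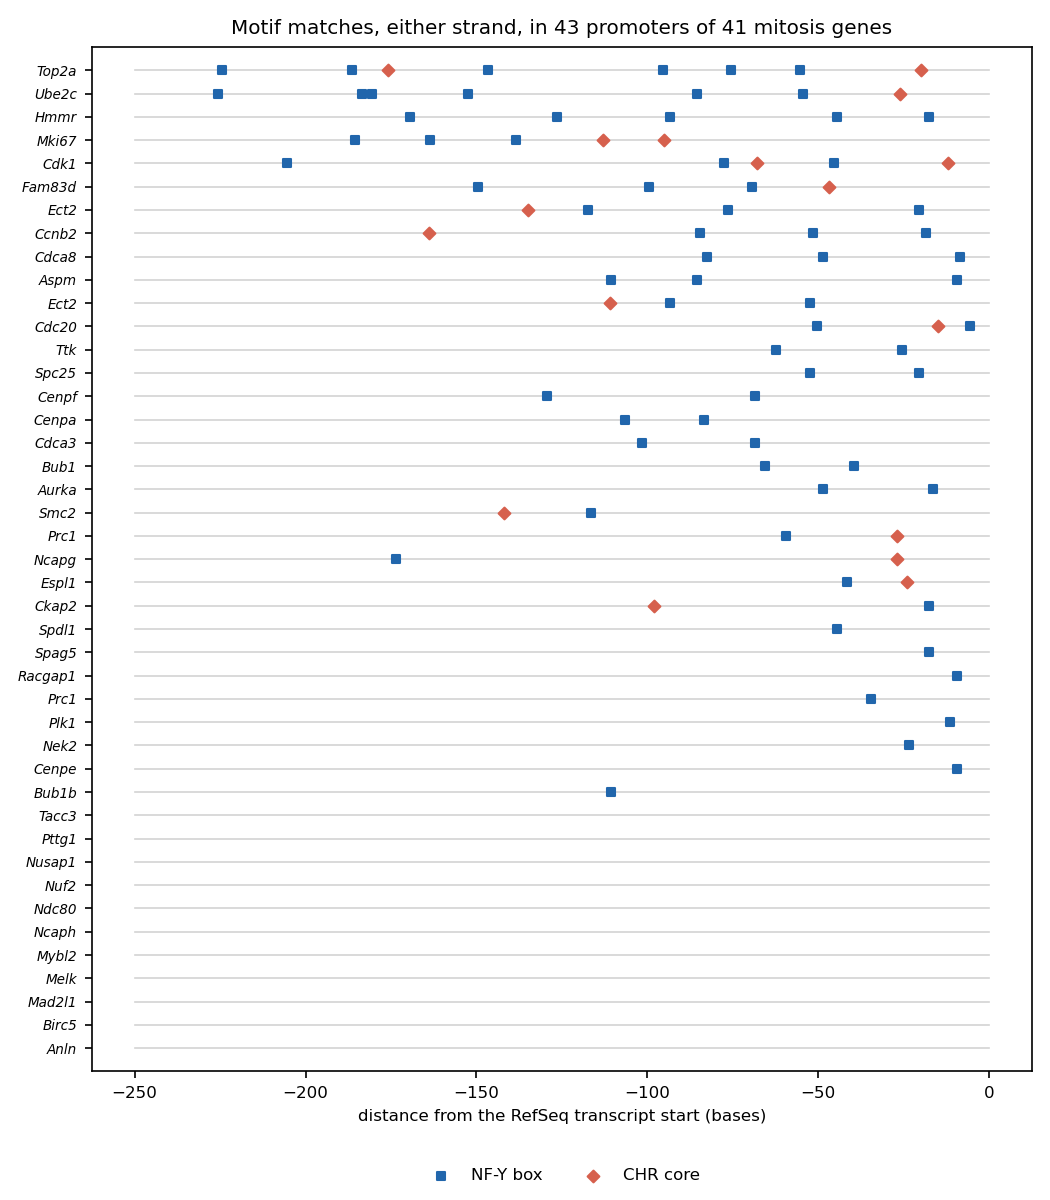
Positions of the 2 motifs, on either strand, in the 250 bases before the RefSeq start of 43 promoters, with 0 at the start; squares are the box bound by NF-Y and diamonds the CHR core. In 32 promoters at least 1 square is present, and 11 promoters have neither.

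The kinetochore is the protein platform on the centromere that binds spindle microtubules. All 16 genes of this class, which also holds the checkpoint kinases and the chromosomal passenger complex, were below zero in DKO against no-Cre, from -0.77 to -0.22 with a median of -0.52 in the 15 libraries; 0 passed limma's threshold and 12 had an unadjusted p under 0.05. The median in the 11 libraries was -0.67, and Aurkb, Bub1, Cenpe, Mad2l1, Ndc80, Nuf2, Spc24, Spc25 and Spdl1 were called. Cenpe, itself a motor of the kinesin superfamily, is counted with the kinetochore. Ndc80, Spc24 and Spdl1 here, and Nek2 among the spindle genes, were singled out after their values were seen.

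Spc25, a subunit of the Ndc80 complex that grips microtubules, had the largest difference of the class in the 15 libraries. It read 6.80, 6.16, 7.00, 6.15 and 6.79 in DKO libraries 1 to 5, against 6.61, 6.71, 7.13, 7.17 and 7.26 in Math1-Cre and 7.55, 7.60, 7.15, 7.28 and 7.20 in no-Cre libraries. Every DKO library lay below every no-Cre library, and Math1-Cre 1 and 2 lay among the DKO values. The difference from no-Cre was -0.77 ± 0.18 (SE), adjusted p = 0.0772 by limma, and in the 11 libraries -0.99 ± 0.16 (SE), adjusted p = 0.0103 (adjusted p from 0.00153 to 0.0964 over the other settings of that fit, single libraries left out included). Its promoter held CCAAT at 55 and 23 bases before the start.

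Nuf2, another subunit of that complex, read 7.41, 6.92, 7.31, 7.17 and 7.52 in DKO, against 7.25, 7.28, 7.66, 7.97 and 7.83 in Math1-Cre and 8.10, 8.15, 7.96, 7.65 and 8.08 in no-Cre libraries. All 5 DKO libraries were below the lowest no-Cre library, and the Math1-Cre group was split, with its first 2 libraries at DKO levels. limma gave -0.72 ± 0.15 (SE), adjusted p = 0.0686, and in the 11 libraries -0.78 ± 0.15 (SE), adjusted p = 0.0279 (adjusted p from 0.00846 to 0.172 over the other settings). Mad2l1, which encodes the checkpoint protein Mad2, read 7.34, 6.95, 7.33, 7.22 and 7.53 in DKO, against 7.46, 7.44, 7.72, 7.85 and 8.13 in Math1-Cre and 8.21, 8.09, 7.94, 7.78 and 7.97 in no-Cre libraries. Its DKO libraries again all lay below the no-Cre libraries, while Math1-Cre 1 and 2 overlapped DKO 5. The difference was -0.73 ± 0.13 (SE), adjusted p = 0.0598, and in the 11 libraries -0.77 ± 0.14 (SE), adjusted p = 0.0263 (adjusted p from 0.0138 to 0.122 over the other settings).

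Ndc80, the subunit that contacts the microtubule, followed the Gsk3a row in place of the label. It read 7.81, 7.25, 8.07, 7.14 and 7.28 in DKO, against 7.15, 7.27, 7.89, 7.98 and 8.15 in Math1-Cre and 8.04, 8.19, 8.01, 7.63 and 8.14 in no-Cre libraries. DKO 1 and 3 lay among the no-Cre values, and all 5 libraries low on the Gsk3a row were below all 10 others. As labelled the difference was -0.49 ± 0.21 (SE), adjusted p = 0.247; in the 11 libraries it was -0.78 ± 0.12 (SE), adjusted p = 0.0101 against no-Cre (adjusted p from 0.000865 to 0.0715 over the other settings). Against Math1-Cre it was -0.79 ± 0.14 (SE), adjusted p = 0.0289 (adjusted p from 0.00367 to 0.135), and it passed in 5 of the 11 fits that left out 1 library. Spc24, the partner of Spc25, gave 5.99, 4.80, 5.46, 5.06 and 4.92 in DKO, against 5.10, 5.20, 5.44, 5.73 and 5.46 in Math1-Cre and 5.58, 5.58, 5.50, 5.53 and 5.49 in no-Cre libraries. DKO 1 was the highest of all 15 libraries. In DKO 2, 3, 4 and 5 its level lay below the 95th percentile of the olfactory and vomeronasal receptor genes of the same library, which serves here as background, so those 4 values have no order among themselves and are only upper limits. As labelled the difference was -0.29 (adjusted p = 0.414). Spc24 in the 11 libraries, where all 3 DKO libraries were at background, averaged 4.93 in DKO against 5.54 in no-Cre libraries, and was at least 1.19-fold lower in DKO when each DKO library is set to its background percentile; limma on the values as measured gave adjusted p = 0.00774 (adjusted p from 0.0069 to 0.0808 over the other settings).

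Spdl1 (Spindly), which recruits dynein to kinetochores, was high in part of the Math1-Cre control. It read 5.11, 4.49, 4.58, 5.10 and 4.56 in DKO, against 4.84, 4.91, 5.72, 5.80 and 6.00 in Math1-Cre and 5.42, 5.45, 5.50, 5.26 and 5.45 in no-Cre libraries. Math1-Cre 3, 4 and 5 were the 3 highest libraries, above every no-Cre library. DKO 2, 3, 4 and 5, Math1-Cre 1 and no-Cre 4 lay below that background percentile, so only DKO 1 was measured above background in the DKO group. Against Math1-Cre the difference in the 15 libraries was -0.69 ± 0.20 (SE), adjusted p = 0.0944. Against no-Cre it was -0.649 ± 0.205 (SE), adjusted p = 0.146, in the same 15 libraries. With the whole DKO group at background in the 11 libraries, Spdl1 averaged 4.72 in DKO against 5.84 in Math1-Cre, at least 1.47-fold lower in DKO by the same limit, with adjusted p = 0.00497 on the measured values (adjusted p from 0.000667 to 0.116 over the other settings). Against no-Cre, which averaged 5.42, no such limit can be set, because no-Cre 4 was itself at background. On the measured values limma gave adjusted p = 0.0279 for Spdl1 against no-Cre (adjusted p from 0.00482 to 0.229 over the other settings). Incenp, the scaffold of the chromosomal passenger complex, had the smallest difference of the class in the 15 libraries, -0.22 ± 0.14 (SE), adjusted p = 0.434, against -0.44 ± 0.10 (SE), adjusted p = 0.0587 in the 11. It read 7.66, 7.25, 7.85, 7.16 and 7.22 in DKO, against 7.12, 7.23, 7.51, 7.62 and 7.69 in Math1-Cre and 7.69, 7.82, 7.67, 7.39 and 7.67 in no-Cre libraries. DKO 3 was the highest of all libraries and the 5 libraries low on the Gsk3a row the lowest 5.

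The spindle class holds the 3 genes called as labelled. All 11 genes were below zero in DKO against no-Cre, from -0.90 to -0.11 with a median of -0.56, and 9 had an unadjusted p under 0.05. The 11 libraries gave a median of -0.62, with Aurka, Ckap2, Fam83d, Nek2 and Spag5 called.

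Fam83d, known from human cells to bring casein kinase 1 alpha to the spindle and needed there for its positioning, was lower in DKO than in either control. It read 5.73, 5.98, 6.07, 6.11 and 6.27 in DKO, against 6.41, 6.46, 6.66, 7.02 and 6.87 in Math1-Cre and 6.93, 7.03, 6.92, 6.74 and 7.04 in no-Cre libraries. All 5 DKO libraries lay below all 10 control libraries, DKO 1 and 3 included, and DKO 1 was the lowest of all. Fam83d was 1.86-fold lower than in no-Cre, a difference of -0.90 ± 0.12 (SE), adjusted p = 0.0254, and 1.57-fold lower than in Math1-Cre, -0.65 ± 0.12 (SE), adjusted p = 0.0434. The first call failed when DKO 3 (adjusted p = 0.0658) or one of the no-Cre libraries 1 (0.0573), 2 (0.0908) and 3 (0.0519) was left out, with differences from -0.91 to -0.87. The second passed without DKO 5 or no-Cre 4 and was lost without any of the other 13 libraries, with adjusted p up to 0.112. In the 11 libraries the difference from no-Cre was -0.81 ± 0.11 (SE), adjusted p = 0.0036 (adjusted p from 0.00246 to 0.0616 over the other settings), and that from Math1-Cre -0.73 ± 0.12 (SE), adjusted p = 0.0217 (adjusted p from 0.0119 to 0.135 over the other settings).

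Spag5 (astrin), which holds spindle poles and kinetochore fibres together, read 7.13, 6.95, 7.08, 7.08 and 7.09 in DKO, against 7.29, 7.42, 7.53, 7.65 and 7.46 in Math1-Cre and 7.83, 7.65, 7.45, 7.42 and 7.58 in no-Cre libraries. The DKO values lay close together and all below every control library, while the control groups overlapped. The difference was -0.52 ± 0.09 (SE), adjusted p = 0.0392 against no-Cre and -0.40 ± 0.09 (SE), adjusted p = 0.0487 against Math1-Cre. When 1 library was left out, the call against no-Cre failed for 8 of them (DKO 2 and 3, Math1-Cre 2 and 3, and no-Cre 1, 2, 3 and 5), at adjusted p from 0.0584 to 0.109. That against Math1-Cre was kept only without DKO 5, no-Cre 1 or no-Cre 4, at its highest adjusted p 0.122. In the 11 libraries the difference was -0.55 ± 0.10 (SE), adjusted p = 0.0274 against no-Cre (adjusted p from 0.012 to 0.174 over the other settings).

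Ckap2, a protein that stabilises spindle microtubules, read 7.68, 7.37, 7.60, 7.91 and 7.66 in DKO, against 8.00, 7.77, 8.09, 8.06 and 8.01 in Math1-Cre and 8.36, 8.32, 8.14, 8.12 and 8.20 in no-Cre libraries. Its 3 groups formed steps: DKO lay below no-Cre throughout, and Math1-Cre lay between them, overlapping DKO only through Math1-Cre 2. Ckap2 was the 1 gene of the 50 whose Math1-Cre libraries all lay below all no-Cre libraries, a pattern that 0.207% of all genes showed. The difference was -0.58 ± 0.09 (SE), adjusted p = 0.0386 against no-Cre and -0.35 ± 0.09 (SE), adjusted p = 0.0778 against Math1-Cre. Leaving out 1 library ended the call against no-Cre for 9 of the 15 (DKO 2 and 3, Math1-Cre 1, 3 and 4, and no-Cre 1, 2, 3 and 5), at adjusted p from 0.0541 to 0.106. The 11 libraries gave -0.58 ± 0.11 (SE), adjusted p = 0.0319 (adjusted p from 0.0195 to 0.249 over the other settings).

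Aurka, the kinase that matures centrosomes and the spindle poles, read 6.69, 6.40, 6.55, 6.67 and 7.11 in DKO, against 6.85, 6.66, 7.43, 7.41 and 7.44 in Math1-Cre and 7.82, 7.65, 7.41, 7.18 and 7.47 in no-Cre libraries. The DKO libraries lay below all no-Cre libraries, while Math1-Cre 1 and 2 lay among them and Math1-Cre 3, 4 and 5 among the no-Cre values. The difference was -0.82 ± 0.17 (SE), adjusted p = 0.0686 against no-Cre, and -0.78 ± 0.16 (SE), adjusted p = 0.0437 in the 11 libraries (adjusted p from 0.014 to 0.222 over the other settings). Aspm, a spindle pole protein whose loss gives a small brain, read 7.17, 6.84, 6.96, 6.61 and 7.33 in DKO, against 6.99, 6.85, 7.50, 7.48 and 7.73 in Math1-Cre and 7.91, 7.85, 7.63, 7.05 and 7.63 in no-Cre libraries. DKO and no-Cre overlapped only through no-Cre 4. The difference was -0.63 ± 0.19 (SE), adjusted p = 0.13, and -0.69 ± 0.20 (SE), adjusted p = 0.149 in the 11 libraries.

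Nek2, a kinase that separates centrosomes, read 6.16, 5.70, 6.37, 5.72 and 5.81 in DKO, against 5.85, 5.84, 6.20, 6.27 and 6.42 in Math1-Cre and 6.63, 6.50, 6.60, 6.28 and 6.57 in no-Cre libraries. The 5 libraries low on the Gsk3a row were the 5 lowest, with DKO 1 and 3 at the level of Math1-Cre 3, 4 and 5. The difference was -0.57 ± 0.14 (SE), adjusted p = 0.0934 as labelled and -0.77 ± 0.10 (SE), adjusted p = 0.002 in the 11 libraries (adjusted p from 0.000612 to 0.0549 over the other settings). Bora, an activator of Aurka, had the smallest difference of the whole list in the 15 libraries, -0.11 ± 0.17 (SE), adjusted p = 0.758, against -0.35 ± 0.17 (SE), adjusted p = 0.414 in the 11, where Pttg1 and Tacc3 had smaller ones. It read 7.47, 6.84, 7.33, 6.59 and 6.98 in DKO, against 6.96, 6.90, 7.11, 6.99 and 7.40 in Math1-Cre and 7.52, 7.23, 6.95, 6.75 and 7.31 in no-Cre libraries, and the 3 groups overlapped. Its sign turned without DKO 4 and with array spread as a covariate.

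Cytokinesis was covered by 4 genes, all below zero in DKO against no-Cre with a median of -0.56 in the 15 libraries, where 0 passed and all 4 had an unadjusted p under 0.05. The median in the 11 libraries was -0.65, and Anln and Racgap1 were called. Anln (anillin), a scaffold of the contractile ring, read 7.28, 6.84, 7.00, 6.91 and 7.35 in DKO, against 7.04, 6.93, 7.43, 7.69 and 7.89 in Math1-Cre and 7.97, 7.94, 7.69, 7.67 and 7.71 in no-Cre libraries. All DKO libraries lay below all no-Cre libraries, and so did Math1-Cre 1, 2 and 3. The difference was -0.72 ± 0.16 (SE), adjusted p = 0.0772, and -0.77 ± 0.14 (SE), adjusted p = 0.0249 in the 11 libraries (adjusted p from 0.00933 to 0.135 over the other settings). Ect2, the exchange factor that activates RhoA at the cell equator, read 8.70, 8.18, 8.62, 8.42 and 8.95 in DKO, against 8.46, 8.51, 8.87, 9.14 and 9.38 in Math1-Cre and 9.41, 9.37, 9.22, 8.96 and 9.20 in no-Cre libraries. The groups were barely separate, DKO 5 lying just under no-Cre 4. The difference was -0.66 ± 0.17 (SE), adjusted p = 0.104, and -0.71 ± 0.17 (SE), adjusted p = 0.0866 in the 11 libraries.

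Racgap1, the GTPase activator of the centralspindlin complex, and Prc1, which bundles the central spindle, were lowest in the libraries low on the Gsk3a row, each by a narrow margin. Racgap1 read 8.47, 8.18, 8.64, 8.22 and 8.40 in DKO, against 8.39, 8.43, 8.65, 8.87 and 8.75 in Math1-Cre and 8.89, 9.02, 8.62, 8.85 and 8.82 in no-Cre libraries. The 5 libraries low on the Gsk3a row were the 5 lowest, with DKO 1 next at 8.47 after Math1-Cre 2 at 8.43. The difference was -0.46 ± 0.11 (SE), adjusted p = 0.0891, and -0.57 ± 0.10 (SE), adjusted p = 0.0198 in the 11 libraries (adjusted p from 0.0144 to 0.109 over the other settings). Prc1 had the smallest difference of the class in the 15 libraries, -0.46 ± 0.15 (SE), adjusted p = 0.149, against -0.59 ± 0.15 (SE), adjusted p = 0.104 in the 11, with 8.30, 7.68, 8.35, 8.00 and 8.30 in DKO, against 8.07, 8.04, 8.33, 8.46 and 8.63 in Math1-Cre and 8.89, 8.67, 8.58, 8.42 and 8.36 in no-Cre libraries. DKO 2 was the lowest library, DKO 5 and DKO 1 read the same to 2 decimals at the border of the Gsk3a split, and every DKO library also lay below every no-Cre library.

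The 8 measured genes of condensin and chromosome structure ran from -0.60 to -0.23 with a median of -0.37 in the 15 libraries, where 0 passed and 7 had an unadjusted p under 0.05. In the 11 libraries the median was -0.53 and Ncaph and Top2a were called. Ncaph, a condensin I subunit, read 7.70, 7.40, 7.63, 7.66 and 7.81 in DKO, against 7.74, 7.69, 7.98, 8.08 and 8.29 in Math1-Cre and 8.39, 8.31, 8.22, 8.07 and 8.21 in no-Cre libraries. It was low in all 5 DKO libraries, with Math1-Cre 1 and 2 beside them. The difference was -0.60 ± 0.11 (SE), adjusted p = 0.0598, and -0.62 ± 0.11 (SE), adjusted p = 0.0252 in the 11 libraries (adjusted p from 0.0128 to 0.151 over the other settings).

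Top2a, which untangles sister chromatids, read 9.09, 8.45, 9.12, 8.44 and 8.77 in DKO, against 8.51, 8.61, 9.03, 9.20 and 9.18 in Math1-Cre and 9.41, 9.35, 9.02, 9.01 and 9.17 in no-Cre libraries. DKO 1 and 3 lay among the controls, and the 5 libraries low on the Gsk3a row were the lowest 5 by a clear gap. The difference was -0.42 ± 0.17 (SE), adjusted p = 0.215 as labelled, and -0.64 ± 0.12 (SE), adjusted p = 0.0263 in the 11 libraries (adjusted p from 0.0136 to 0.146 over the other settings). On 2 further rows that Top2a shares with Taf1d the difference was -0.02 and 0.03. Mki67, the source of the Ki-67 proliferation antigen, read 9.17, 8.57, 9.42, 8.78 and 9.01 in DKO, against 8.69, 8.79, 9.21, 9.36 and 9.71 in Math1-Cre and 9.80, 9.49, 9.21, 9.20 and 9.41 in no-Cre libraries. The 5 libraries low on the Gsk3a row were again the lowest 5; of the others, DKO 1 was next, below every control library high on that row, and DKO 3 lay within the range of those controls. The difference was -0.43 ± 0.19 (SE), adjusted p = 0.266, and -0.64 ± 0.16 (SE), adjusted p = 0.098 in the 11 libraries (adjusted p from 0.0378 to 0.276 over the other settings).

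Espl1 encodes separase and Pttg1 its inhibitor securin. Espl1 read 6.55, 6.12, 6.43, 5.78 and 6.32 in DKO, against 5.90, 6.01, 6.53, 6.88 and 6.53 in Math1-Cre and 6.93, 6.77, 6.59, 6.52 and 6.83 in no-Cre libraries. The 5 libraries low on the Gsk3a row were the lowest 5, DKO 4 and Math1-Cre 1 furthest. The difference was -0.49 ± 0.18 (SE), adjusted p = 0.186, and -0.65 ± 0.14 (SE), adjusted p = 0.0519 in the 11 libraries. Pttg1 had the smallest difference of the class, -0.23 ± 0.08 (SE), adjusted p = 0.172, and -0.28 ± 0.10 (SE), adjusted p = 0.278 in the 11 libraries, with 5.69, 5.47, 5.61, 5.53 and 5.62 in DKO, against 5.60, 5.66, 5.72, 5.69 and 5.82 in Math1-Cre and 5.94, 5.83, 5.82, 5.54 and 5.96 in no-Cre libraries, and the groups overlapped through no-Cre 4.

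The 11 regulators ranged from -0.65 to -0.31 in DKO against no-Cre with a median of -0.42; 0 passed in the 15 libraries and 9 had an unadjusted p under 0.05. The median in the 11 libraries was -0.54, and Ccna2, Foxm1, Melk and Mybl2 were called. Cdk1, the kinase that triggers mitosis, read 9.16, 8.77, 9.21, 9.07 and 9.38 in DKO, against 9.03, 9.05, 9.60, 9.75 and 9.93 in Math1-Cre and 9.997, 9.95, 9.73, 9.43 and 9.75 in no-Cre libraries. All DKO libraries lay below all no-Cre libraries, DKO 5 just under no-Cre 4, and Math1-Cre 1 and 2 lay among the DKO values. The difference was -0.65 ± 0.17 (SE), adjusted p = 0.104, and -0.70 ± 0.15 (SE), adjusted p = 0.0608 in the 11 libraries (adjusted p from 0.0159 to 0.241 over the other settings). Ccnb2, a B-type cyclin that activates Cdk1, read 8.84, 8.34, 8.82, 8.62 and 8.86 in DKO, against 8.63, 8.40, 8.96, 8.98 and 8.95 in Math1-Cre and 9.37, 9.42, 9.07, 8.97 and 9.19 in no-Cre libraries. Its DKO libraries lay below the no-Cre libraries, and DKO 1, 3 and 5 came close to Math1-Cre 3, 4 and 5. The difference was -0.51 ± 0.13 (SE), adjusted p = 0.104 against no-Cre (-0.59 ± 0.13 (SE), adjusted p = 0.0566 in the 11 libraries) and -0.09 ± 0.13 (SE), adjusted p = 0.721 against Math1-Cre, where its sign turned after quantile normalization or centring.

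Melk, a kinase highest in dividing progenitors, read 6.56, 5.89, 6.34, 5.99 and 6.36 in DKO, against 6.06, 5.90, 6.59, 6.75 and 6.75 in Math1-Cre and 7.03, 6.96, 6.72, 6.50 and 6.78 in no-Cre libraries. DKO 2 and 4 and Math1-Cre 1 and 2 were the 4 lowest libraries, and DKO and no-Cre overlapped only through no-Cre 4. The difference was -0.57 ± 0.18 (SE), adjusted p = 0.142, and -0.72 ± 0.14 (SE), adjusted p = 0.0279 in the 11 libraries (adjusted p from 0.00917 to 0.154 over the other settings).

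The transcription factors of the programme itself, Mybl2 (B-Myb) and Foxm1, were split by the Gsk3a row. Mybl2 read 6.58, 5.69, 6.51, 5.57 and 6.04 in DKO, against 6.01, 5.52, 6.30, 6.57 and 6.83 in Math1-Cre and 6.66, 6.53, 6.39, 6.43 and 6.47 in no-Cre libraries. DKO 1 and 3 lay within the no-Cre range, whereas DKO 2 and 4 and Math1-Cre 2 were far below it and DKO 5 and Math1-Cre 1 between. The difference was -0.42 ± 0.23 (SE), adjusted p = 0.352 as labelled; in the 11 libraries it was -0.73 ± 0.13 (SE), adjusted p = 0.0249 against no-Cre (adjusted p from 0.0137 to 0.142 over the other settings) and -0.80 ± 0.15 (SE), adjusted p = 0.0386 against Math1-Cre (adjusted p from 0.0201 to 0.189). Foxm1 read 7.70, 7.32, 7.93, 7.29 and 7.20 in DKO, against 7.17, 7.32, 7.45, 7.48 and 7.67 in Math1-Cre and 7.85, 7.88, 7.66, 7.86 and 7.73 in no-Cre libraries. DKO 3 was the highest library of all, and Math1-Cre 3, 4 and 5 stayed near or below the lowest no-Cre value. Foxm1 had the smallest difference of the class in the 15 libraries, -0.31 ± 0.13 (SE), adjusted p = 0.238, and in the 11 libraries -0.53 ± 0.09 (SE), adjusted p = 0.0129 (adjusted p from 0.0125 to 0.105 over the other settings). Against Math1-Cre it was 0.07 in the 15 libraries and -0.26 in the 11, so its sign turned.

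**Figure D4:**
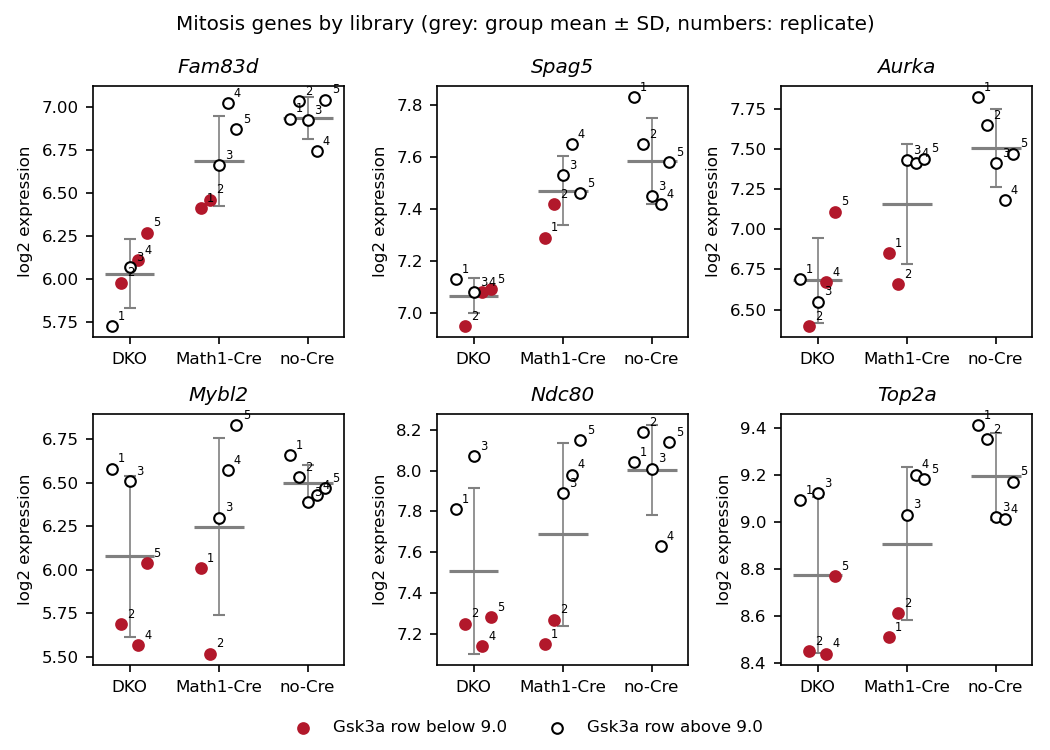
Log2 levels of 6 mitosis genes in every library, by label, with replicate numbers; grey bars are the group mean and SD, and red points are libraries below 9.0 on the Gsk3a row. In Fam83d, Spag5 and Aurka, DKO 1 and 3 are as low as the other DKO libraries, and in Mybl2, Ndc80 and Top2a, DKO 1 and 3 lie with the controls.

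Over the list, 2 patterns among the libraries were thus counted, without a test. In 22 of the 50 genes every DKO library lay below every no-Cre library, as in 1.96% of all genes; these were 7 kinetochore, 6 spindle, 3 cytokinesis and 2 chromosome genes and 4 regulators. In 17 of the 50 every library low on the Gsk3a row lay below every other library, as in 0.843% of all genes; these were 6 kinetochore, 2 spindle, 2 cytokinesis and 4 chromosome genes and 3 regulators. Spc25 and Prc1 showed both, the second by a narrow margin. The highest library low on the Gsk3a row and the lowest other library read 6.79 and 6.797 for Spc25. For Prc1 they read 8.302 and 8.304. The margin was as narrow for Tpx2 (7.975 and 7.977) and Cenpe (7.37 and 7.372), but wide for Ndc80 (7.28 and 7.631). Spdl1, counted in the first pattern, and Spc24, counted in the second, were at background in DKO 2, 3, 4 and 5. Within the labels, Math1-Cre 1 and 2 lay below Math1-Cre 3, 4 and 5 in 47 genes (15% of all genes), the exceptions being Cdca3, Nusap1 and Tacc3, and DKO 2, 4 and 5 lay below DKO 1 and 3 in 22 genes (12.8% of all genes). Every DKO library lay below every Math1-Cre library in 2 genes, Fam83d and Spag5, as in 5.51% of all genes.

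Both DKO libraries that read high for Gsk3a still lay below the no-Cre libraries in part of the list. Their arrays had interquartile ranges of 4.24 (DKO 1) and 4.06 (DKO 3), against 4.34 to 4.36 in Math1-Cre 3, 4 and 5. The part of array spread in the counts that follow was not tested. DKO 1 and 3 were below every no-Cre library in 22 of the 50 genes, as were 10.3% of all genes, whereas Math1-Cre 3, 4 and 5, the other Cre libraries that read high, were so in 1 gene, Ckap2, as were 0.803% of all genes. These were the same 22 genes in which every DKO library did, among them Anln, Aurka, Cdk1, Fam83d, Mad2l1, Ncaph and Nuf2. By class, DKO 1 and 3 averaged -0.45 and -0.42 relative to the no-Cre mean over the spindle genes and -0.43 and -0.46 over the cytokinesis genes. They averaged -0.21 and -0.20 over chromosome structure and -0.25 and -0.24 over the regulators. The kinetochore genes lay between, at -0.26 and -0.33. Math1-Cre 1 and 2, low for Gsk3a, were below every no-Cre library in 44 genes (5.35% of all genes), and DKO 2, 4 and 5 in 43 (4.9%).

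The mean over the 50 genes relative to the no-Cre mean was -0.31, -0.76, -0.32, -0.62 and -0.42 in DKO libraries 1 to 5, against -0.58, -0.60, -0.21, -0.04 and 0.03 in Math1-Cre and 0.17, 0.13, -0.09, -0.21 and 0.00 in no-Cre libraries. It ran from -0.76 to -0.42 in the 5 libraries low on the Gsk3a row and from -0.32 to 0.17 in the other 10. DKO 2 was the lowest library in 29 of the 50 genes, and no-Cre 1 the highest in 24.

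**Figure D5:**
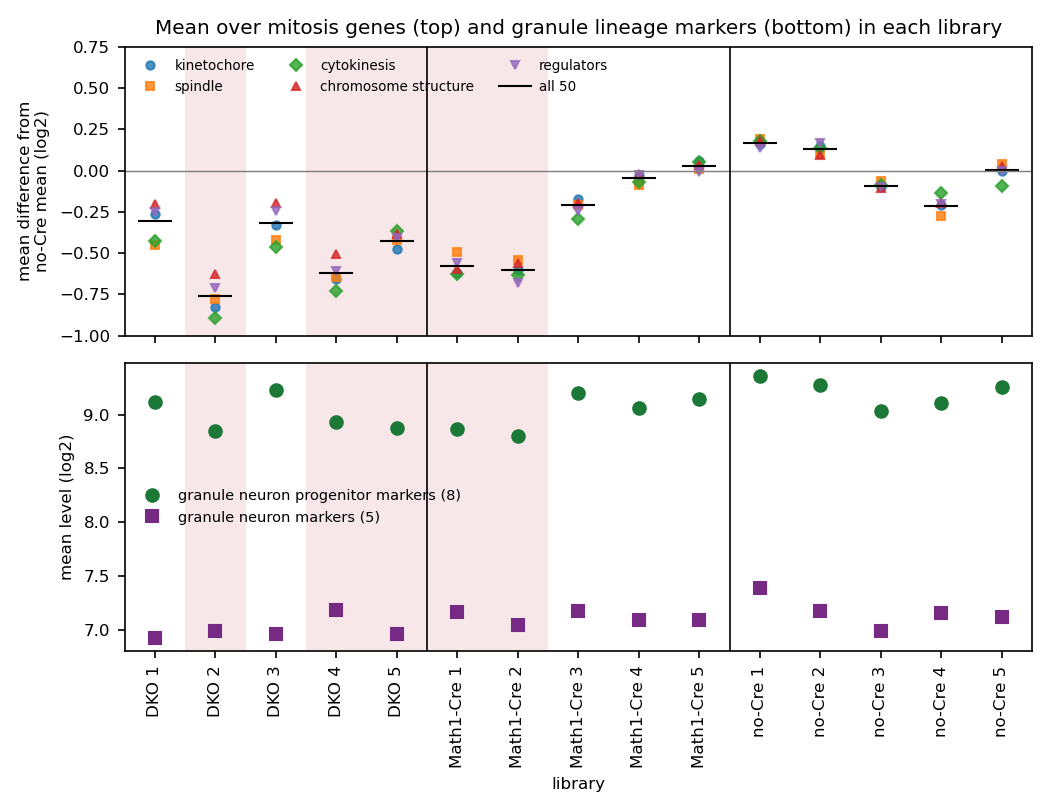
The upper panel gives, for each library, the mean over the mitosis genes of each class and over all 50 relative to the no-Cre mean, and the lower panel the mean log2 level of granule neuron progenitor and granule neuron markers; shaded libraries are below 9.0 on the Gsk3a row. Means over all 50 mitosis genes (-0.76 to -0.42) and over the progenitor markers (8.80 to 8.93) are lowest in the 5 shaded libraries. By class this fails for DKO 5, shaded, over the spindle genes (-0.419) and the cytokinesis genes (-0.363). DKO 1 (-0.453 and -0.426) and DKO 3 (-0.421 and -0.462), not shaded, lie lower there.

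Markers of granule neuron progenitors were lowest in the same libraries as the mitosis genes, and their part in the result was not tested. In DKO against no-Cre 6 of their 8 markers lay below zero and limma called 0 in the 15 libraries; 2 reached an unadjusted 0.05, and the median was -0.12. Against Math1-Cre 4 lay below and 4 above zero, with a median of -0.002. Among the 11 libraries 6 of 8 lay below zero against no-Cre with a median of -0.26, and 2 were called, Atoh1 and Mycn. The mean over their 8 markers ran from 8.85 to 9.23 in DKO, against 8.80 to 9.21 in Math1-Cre and 9.04 to 9.36 in no-Cre libraries; in the 5 libraries low on the Gsk3a row it was 8.80 to 8.93, below the 9.04 to 9.36 of the other 10. Atoh1, the progenitor factor whose promoter drives Cre here, was -0.71 in DKO against no-Cre (adjusted p = 0.116) and -0.80 in the 11 libraries, where it was called. Mycn, a hedgehog target that drives progenitor division, was -0.52 (adjusted p = 0.159) and -0.64 in the 11 libraries, where it was called too. The mean over 5 granule neuron markers overlapped between the groups, from 6.92 to 7.19 in DKO, 7.04 to 7.17 in Math1-Cre and 6.99 to 7.39 in no-Cre libraries. Within that list, in the 11 libraries, Nhlh1, a factor of newly born granule neurons, was called lower in DKO than in no-Cre at -1.20. Gabra6, a receptor subunit of mature granule neurons, was called higher there at 1.70. The no-Cre mean of Gabra6, 3.699, lay under the lowest background percentile of any library, 4.654. Its mean in DKO 2, 4 and 5, 5.398, lay within the range of their background percentiles, 4.953 to 5.518. The difference of Gabra6 therefore has no measured size. Of the markers of other cells, 10 of 11 measured hindbrain Hox genes were at background in every library, as was the Purkinje marker Ppp1r17. The mean level of the lists for Purkinje cells, interneurons, glia, microglia, endothelium, pericytes, choroid plexus and brainstem aminergic neurons overlapped between the 3 groups, and limma called 0 of their genes, but some of them lay lower in DKO along with the mitosis genes. Choroid plexus and ependyma markers lay below zero in 4 of 4 against no-Cre (median -0.42, 2 with an unadjusted p under 0.05) and against Math1-Cre (-0.41, 2 unadjusted), with -0.31 and -0.19 in the 11 libraries. Endothelial markers did so in 5 of 5 (-0.32 against no-Cre and -0.21 against Math1-Cre, 1 and 2 unadjusted), as did 5 of 5 markers of the oligodendrocyte lineage (-0.14 and -0.12, 2 unadjusted in each). Of 5 microglial markers 4 lay below zero against no-Cre (-0.20, 0 unadjusted) and 5 against Math1-Cre (-0.27, 2 unadjusted), a median further from zero than the median of the mitosis genes, -0.17. Pericyte and meningeal markers had a median of -0.28 against no-Cre and 0.002 in the 11 libraries. The 3 measured aminergic markers had medians of -0.64 against no-Cre and -1.26 against Math1-Cre with 0 unadjusted. Medians of the other lists against no-Cre and Math1-Cre were -0.07 and -0.19 for Purkinje cells, 0.08 and 0.08 for interneurons and -0.03 and -0.03 for astrocytes and Bergmann glia. The part of these cells in the result was not tested. None of 3 erythroid markers was measured on a row of its own.

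Other genes of the cell division programme, taken from lists chosen by function, mostly lay lower in DKO than in no-Cre libraries too. Of 69 further mitosis genes, 62 were measured and 61 lay below zero in DKO against no-Cre, with a median of -0.36; limma called 0 in the 15 libraries, 40 had an unadjusted p under 0.05, and 12 were called lower in the 11 libraries, where 0.64% of all genes were. Over all genes 17.4% had an unadjusted p under 0.05 in the 15 libraries. Those 4 of the 12 furthest from zero were Iqgap3 at -0.79, Depdc1a at -0.78, Cdca5 (sororin, which protects cohesin) at -0.74 and Esco2, a cohesin acetyltransferase, at -0.73. The 12 mitotic kinesins had a median of -0.49 with 0 called (11 with an unadjusted p under 0.05) and 6 in the 11 libraries. The 25 replication genes had a median of -0.37 with 0 called (18 unadjusted). In the 11 libraries 3 of them were called, Mcm3 of the replicative helicase at -0.85, its loader Cdc6 at -0.77 and the flap nuclease Fen1 at -0.53. Fen1 averaged 3.63 in DKO and 4.16 in no-Cre there, both under the lowest background percentile of any library, 4.65, so its difference has no measured size. Cdc6 averaged 5.15 in DKO 2, 4 and 5, whose background percentiles were 4.95, 5.39 and 5.52, so the size of its difference is uncertain. The lists for the DREAM and MuvB complex (11 genes) and for NF-Y (3 subunits) had smaller medians, -0.16 and -0.17. In the 15 libraries 0 were called (5 and 0 under an unadjusted 0.05). Single genes of the DREAM and MuvB list ran from -0.54 to 0.02. Of that list 1 gene, Tfdp2, a dimer partner of E2F, was called lower in the 11 libraries at -0.66. Of the NF-Y subunits 0 were called there, with 1 of them under an unadjusted 0.05. Against Math1-Cre the 15 libraries gave medians of -0.16 for the further mitosis genes, -0.215 for the kinesins and -0.08 for replication. They gave -0.10 for DREAM and MuvB and -0.10 for NF-Y, with 0 called in each list (all genes -0.05). In the 11 libraries these medians were, in the same order, -0.40, -0.65, -0.39, -0.19 and -0.20 (all genes -0.06). Of the 12 kinesins 1 lay above zero against either control.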

How the data were processed

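RNA of 15 libraries was measured on whole-transcript arrays. The authors deposited 1 table of log2 values, made with RMA in Partek 6.6, with mm9 named as the build, per the submitters' processing notes; the sources used here do not give the order or settings of these steps. Of 41345 array rows, 23521 carry 1 gene symbol, 1814 several and 16010 none. The single-symbol rows gave 22180 genes, each by its row with the highest mean (1082 genes had more than 1). Symbols were matched by gene ID, with 23328 rows matched. Differences were fitted with limma 3.58.1 in R 4.3.3, with 1 mean per group and Benjamini-Hochberg adjustment over all genes at 0.05, and the fit was tested on simulated data. Olfactory and vomeronasal receptor genes (1394) served as background, and a level below their 95th percentile in a library counts as background there. The labels give a lowest RNA integrity number of 7.5.

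The members, the gene lists and the choice of the 11 libraries were made with earlier results of these data known. Genes named with values are, in each class, the 3 largest differences and the smallest between DKO and no-Cre in the 15 libraries, with Mki67, Top2a, Cdk1, Foxm1, Mybl2 and every gene past the threshold; from other lists, those past the threshold, up to 4. Ndc80, Nek2, Spc24 and Spdl1 were added after their values were seen. Promoters were read from RefSeq (GRCm38.p6); 10 of the 51 genes were not matched. Alternatives tried were quantile normalization, median centring, leaving out genes under the 30th percentile of mean level, fitting only the groups compared, a replicate block, the code cg1724 carried by the 3 replicate 5 libraries, array spread and the mean of hindbrain Hox genes as covariates, and leaving out each library. Those on the 11 libraries were chosen after seeing the data. Python 3.11.15 with pandas 2.3.3 and matplotlib 3.10.9 was used for counts and plots.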

Additional observations from a re-analysis of the deposited data

Results flagged for a closer look

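Ckap2 in Math1-Cre control replicate 2 read 7.77, apart from the other 4 Math1-Cre libraries, and its distance from them exceeded Dixon's 95% limit for 5 samples. It was the 1 such value among 72 groups of 5 values examined, where chance alone gives about 1 in 20. Math1-Cre 2 is also one of the libraries low on the Gsk3a row. Without it limma still called Ckap2 lower in DKO than in no-Cre (adjusted p = 0.0414).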

How the results depend on the processing

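Against 3 of the 50 mitosis genes called in DKO against no-Cre in the 15 libraries, the count was 0 with quantile normalization or array spread as a covariate, 1 with centring, only the 2 groups, a replicate block, cg1724 or the Hox mean as a covariate, 22 in the 11 libraries, and 0 to 22 when 1 library was left out; over all genes, 16 became 0 with quantile normalization or array spread, 6 with centring or the block, 2 with only the 2 groups, 7 with cg1724 or the Hox mean, 239 in the 11 libraries, and 0 to 1546 without 1 library. Against 2 genes called in DKO against Math1-Cre, the count was 0 with quantile normalization, centring, the block or array spread, 1 with only the 2 groups, cg1724 or the Hox mean, 6 in the 11 libraries, and 0 to 3 without 1 library; over all genes, 122 became 20, 23, 0, 0 and 52 with quantile normalization, centring, the block, array spread and the Hox mean, and 0 to 1288 without 1 library. In the 11 libraries, 22 genes against no-Cre became 7 with array spread, 0 with the block and 5 to 43 without 1 library, and 6 against Math1-Cre became 1, 0 and 1 to 16, and 3 with the Hox mean. The calls over all genes are not given beside these counts of the 11 libraries. The median difference lay between -0.54 and -0.42 against no-Cre, -0.28 and -0.10 against Math1-Cre (-0.55 in the 11 libraries), and -0.38 and -0.20 for Math1-Cre against no-Cre when 1 library was left out. Same-numbered replicates showed no clear pairing: 6 of 15 pairs of libraries correlated above 0.1 and 5 matched their own number best. Among these 5 were replicates 2, 3 and 5 of DKO with Math1-Cre. With so few libraries per group these counts cannot decide whether replicates pair, and the block is given here only.

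Centring moved the median of all genes from -0.02 to 0.09 for DKO against no-Cre and from -0.05 to 0.09 for DKO against Math1-Cre, and the members' medians, -0.49 and -0.17, became -0.39 and -0.03. Calls over all genes were 4 higher and 12 lower against no-Cre, and 3 and 3 after centring; against Math1-Cre they were 29 and 93, 11 and 9 after quantile normalization and 20 and 3 after centring. In the 11 libraries they were 97 and 142 against no-Cre (136 and 119, and 146 and 83), and 64 and 56 against Math1-Cre (103 and 42, and 111 and 28).

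Of 576 values of named genes under the alternatives in DKO against no-Cre, 2 turned sign, both of Bora, at 0.07 with array spread and above zero without DKO 4. Of 576 in DKO against Math1-Cre, 27 did. With quantile normalization these were Bora 0.11, Ccnb2 0.015, Espl1 0.026, Incenp 0.12 and Pttg1 0.028; with centring, Bora 0.11, Ccnb2 0.051, Espl1 0.007, Incenp 0.13, Pttg1 0.025 and Top2a 0.004; with array spread, Bora 0.21, Espl1 0.012, Incenp 0.12 and Pttg1 0.037. Foxm1, at 0.07 in the 15 libraries, was -0.26 in the 11. With 1 library left out, the range was -0.217 to 0.001 for Bora against no-Cre, and against Math1-Cre -0.136 to 0.082 for Bora, -0.183 to 0.002 for Ccnb2, -0.041 to 0.143 for Foxm1 and -0.112 to 0.060 for Incenp. The cause of these changes was not tested.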
